A study of Macaca mulatta with 45 samples.

Results

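The deep white matter of the rhesus macaque brain was compared with the prefrontal cortex of the same animals. The white matter was taken from the centrum semiovale, and the cortex was the dorsolateral prefrontal cortex of Brodmann Area 46. Of the 45 total RNA libraries of the study, which come from 3 brain regions of 15 animals, 10 entered the comparison: the white matter and the prefrontal cortex libraries of the 5 animals labelled Control Animal 1 to 5. They were chosen by these labels alone and form 5 pairs, 1 per animal. All 5 animals carried a treatment themselves: their thorax had been irradiated with 10 Gy, for which the labels give a brain dose of 0.1 Gy, so there is no untreated animal in the comparison. The same regions of 5 animals after total body irradiation (TBI) served as a second, separate set of 10 libraries. TBI Animals 1 and 2 had received 6.75 Gy, TBI Animals 3 and 4 had received 7.2 Gy and TBI Animal 5 had received 8.05 Gy, each as 1 dose, and necropsy followed 6 to 9 years later. The labels name no age or sex for the animals. Pieces of frozen coronal sections were homogenised whole, so each library mixes all cell types of the piece.

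White matter consists mainly of axons whose cell bodies lie elsewhere, together with the glia that serve them. Oligodendrocytes wrap these axons in myelin, a stack of membranes rich in cholesterol and galactolipids, which restricts current flow to the nodes of Ranvier. Grey matter holds the neuronal cell bodies, dendrites and synapses, and its excitatory neurons are arranged in layers, of which the upper ones project mainly to other cortex and the deep ones mainly to targets below it. Astrocytes differ between the regions as well: protoplasmic astrocytes of grey matter ensheath synapses and clear transmitter, and fibrous astrocytes of white matter run between axons and are rich in the filament protein GFAP.

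Total counts ranged from 6625435 to 10685965 in the 10 libraries. Levels are given as CPM, counts scaled to library size with TMM factors, and are comparable between libraries for 1 gene, but not between genes, because gene lengths were not available. Values are listed in the order of animals 1 to 5 throughout. The white matter of animals 1 and 3 stood apart from the others in neuronal genes. Over 13 pan-neuronal genes, the median level in white matter was 83.0% of the own prefrontal cortex in animal 1 and 33.8% in animal 3, against 4.47, 7.19 and 5.58% in animals 2, 4 and 5. The median over 13 oligodendrocyte and myelin genes was 763% of the own cortex in animal 1 and 1467, 1501, 3776 and 5320% in animals 2 to 5. The prefrontal cortex of animal 1 differed from the other cortex libraries too: COX6C, a subunit of cytochrome c oxidase chosen after its values were seen, was at 41.8 CPM there and at 112 to 131 CPM in the other 4. Gene lists are therefore also given without animals 1 and 3, on the 3 pairs of animals 2, 4 and 5. These animals were left out for their neuronal genes, so the values of neuronal genes on 3 pairs, counts of members that fell included, are a description and no test. Other genes are not free of this choice, since animal 1 also had the lowest median of myelin genes. Their calls and adjusted p on 3 pairs are to be read as a description too. The part that the make-up of the dissected pieces plays in these differences was not tested.

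**Figure D1:**
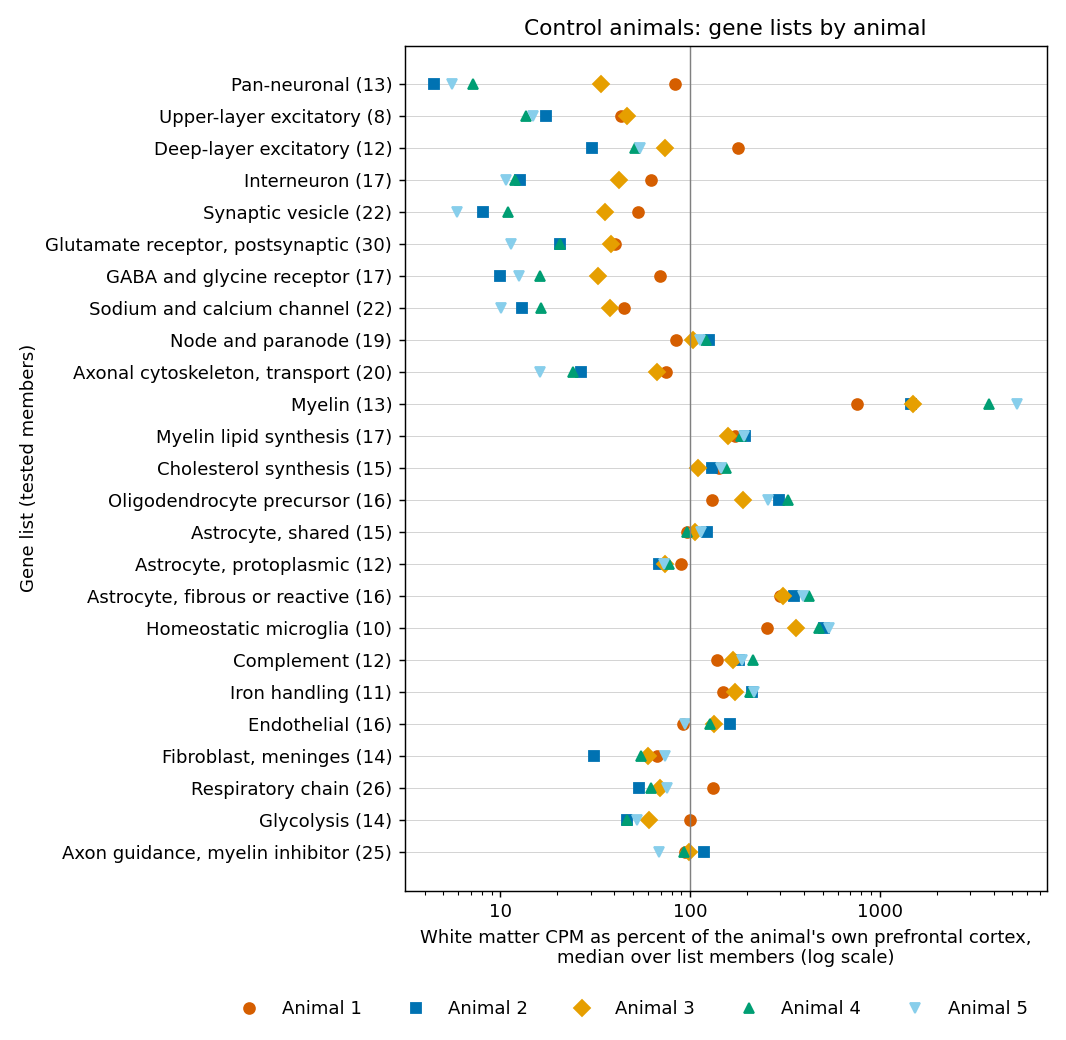
Median level of gene lists in white matter as a percent of the prefrontal cortex of the same animal, on a log axis, with 1 point per animal for each list. Pan-neuronal genes sat at 83.0% in animal 1 and 33.8% in animal 3 and at 7.19% or less in the other 3 animals, while the myelin list was at 763% or more in all 5 animals.

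Of 15033 genes tested, 8259 (54.9%) differed between white matter and prefrontal cortex at an adjusted p under 0.05. In white matter 4182 genes (27.8%) were higher and 4077 (27.1%) were lower, and the count of a gene list has to be read against these shares. The median log2 fold change of all genes tested was 0.03. Fold changes are given on the log2 scale as white matter minus prefrontal cortex with a standard error, from 5 pairs, so 1 unit is a doubling. The standard error was worked out as the size of the fold change over the square root of the F statistic of edgeR's test. At 4-fold or more, 716 of the called genes were higher and 990 were lower. In 5709 genes (38%) the 5 white matter and the 5 cortex libraries did not overlap, with white matter above in 3156 (21%) and below in 2553 (17%). On the 3 pairs of animals 2, 4 and 5, 9727 of 15153 genes (64.2%) passed, with 4879 higher (32.2%) and 4848 lower (32%). Of the 8259 genes called on 5 pairs, 7904 were called in the same direction on 3 pairs and 0 in the opposite direction. The 3 pairs are among the 5, so these calls share libraries and are no separate check.

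Genes of oligodendrocytes and myelin were higher in the white matter of every animal. All 13 tested members of the list rose, with fold changes from 1.30 for TSPAN2 to 5.18 for MOBP, a median of 4.41, and 4.90 on 3 pairs. MOG, a protein of the outer myelin surface, was at 391, 1015, 752, 915 and 891 CPM in white matter and 56.0, 60.1, 50.1, 23.2 and 10.7 CPM in prefrontal cortex. The lowest white matter library was that of animal 1 and was still far above the highest cortex library. In bulk tissue, a difference may come from more cells of a type or from more RNA per cell, and these cannot be told apart here. The fold change of MOG was 4.46 ± 0.55 (adjusted p = 0.00112). CNP, an enzyme of the uncompacted myelin layers, was at 1147, 2054, 1496, 2337 and 2014 CPM in white matter and 155, 183, 123, 87.6 and 56.2 CPM in prefrontal cortex, with a fold change of 3.97 ± 0.39 (adjusted p = 0.000551). For CNP as for MOG, the cortex of animal 5 was the lowest of the cortex libraries and the white matter of animal 1 the lowest of the white matter libraries, and the regions did not overlap.

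Among transcription factors of the lineage, 3 of 5 tested members rose and 0 fell, with a median of 2.34, and on 3 pairs, or without animal 1 alone, all 5 rose, with a median of 2.61 on 3 pairs. MYRF, which switches on myelin genes in mature oligodendrocytes, was at 154, 577, 353, 410.2 and 363 CPM in white matter and 46.8, 15.5, 26.1, 10.4 and 6.78 CPM in prefrontal cortex. Its fold change was 4.41 ± 0.66 (adjusted p = 0.0021) and became 5.37 ± 0.18 without animals 1 and 3, one of the largest upward moves among all list members. In animal 1 its white matter was the lowest and its cortex the highest of the 5. OLIG2, which is found from precursors to mature oligodendrocytes, was at 87.4, 166, 114, 154 and 177 CPM in white matter and 27.2, 30.8, 27.0, 26.1 and 22.8 CPM in prefrontal cortex and rose by 2.34 ± 0.20 (adjusted p = 0.000417). TCF7L2, a factor of newly differentiating oligodendrocytes, had a fold change of 0.92 ± 0.44 (adjusted p = 0.115) on 5 pairs and 1.60 ± 0.24 (adjusted p = 0.000295) on 3 pairs. The 3 pairs were chosen by neuronal genes, so the value on them is a description.

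Most precursor genes rose. Of 16 tested members 11 rose and 1 fell, with a median of 1.23, and on 3 pairs 13 rose and 2 fell with a median of 1.5. PDGFRA, the growth factor receptor that defines precursors, was at 87.8, 72.2, 81.3, 76.1 and 92.6 CPM in white matter and 69.4, 109, 91.8, 109 and 106 CPM in prefrontal cortex. The libraries overlapped and its fold change of -0.23 ± 0.16 did not pass (adjusted p = 0.252), while on 3 pairs it was -0.47 ± 0.13 (adjusted p = 0.0122), lower in white matter. CSPG4, the NG2 proteoglycan of precursors and pericytes, rose by 1.21 ± 0.39 (adjusted p = 0.0349) in 4 of 5 animals. CSPG5, a proteoglycan also made by neurons and astrocytes, was the member that fell, at 99.6, 82.5, 84.8, 68.0 and 66.1 CPM in white matter and 132, 149, 145, 161 and 162 CPM in prefrontal cortex (fold change -0.91 ± 0.16, adjusted p = 0.00361). The members with the largest rises were chosen after their values were seen. They were BCAS1, a marker of newly forming oligodendrocytes, with 3.85 ± 0.39, and VCAN, the proteoglycan versican, with 3.23 ± 0.30.

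Myelin lipid genes rose in 12 and fell in 2 of 17 tested members, with a median of 0.83, and on 3 pairs 12 rose and 2 fell with a median of 0.86. FA2H and UGT8, which act in the synthesis of myelin galactolipids, had the largest rises of the list. UGT8, which adds galactose to ceramide, was at 338, 745, 623, 903 and 898 CPM in white matter and 24.1, 41.7, 38.3, 22.2 and 12.9 CPM in prefrontal cortex, a fold change of 4.67 ± 0.41 (adjusted p = 0.000453). FA2H, which hydroxylates the fatty acids of these lipids, was at 61.2, 173, 130.3, 184 and 152 CPM in white matter and 8.28, 5.78, 6.57, 4.63 and 1.89 CPM in prefrontal cortex (4.69 ± 0.49, adjusted p = 0.000627). CERS2, the ceramide synthase for very long acyl chains, rose by 3.17 ± 0.22, and SPTLC2, a subunit of the first enzyme of sphingolipid synthesis, rose by 2.15 ± 0.18. All 4 were higher in 5 of 5 animals with no overlap. The general fatty acid synthesis genes FASN and ACACA, chosen after their values were seen, had fold changes of -0.02 ± 0.25 and -0.22 ± 0.14 (adjusted p = 0.945 and 0.224). The falling members were ACSBG1, an acyl-CoA synthetase, with -0.64 ± 0.16, and LPIN1, a phosphatidate phosphatase, with -0.33 ± 0.11.

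Cholesterol synthesis genes gave a smaller and uneven difference: 7 of 15 rose, 0 fell, and the median was 0.36, and on 3 pairs 8 rose and 1 fell with a median of 0.45. Without animal 4 or 5 the number that rose was 4. HMGCS1, an enzyme at the entry of the pathway, did not pass. It was at 341, 183, 211, 236 and 167 CPM in white matter and 228, 188, 252, 229.6 and 223 CPM in prefrontal cortex (-0.02 ± 0.17, adjusted p = 0.927), with overlapping libraries. Further down the pathway, MVK, the mevalonate kinase, rose by 1.19 ± 0.22 and MVD, the mevalonate diphosphate decarboxylase, by 0.55 ± 0.14.

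Genes by which oligodendrocytes are held to feed axons did not move as 1 block: 7 of 12 rose and 4 fell, with a median of 0.55, and on 3 pairs 7 rose and 5 fell with a median of 0.63. SLC16A1, the monocarboxylate transporter MCT1 that exports lactate, was at 65.7, 94.1, 90.4, 85.8 and 85.8 CPM in white matter and 31.2, 39.6, 60.8, 47.5 and 43.2 CPM in prefrontal cortex (0.95 ± 0.13, adjusted p = 0.00162). SLC16A7, the neuronal lactate importer MCT2, fell by 0.69 ± 0.11 (adjusted p = 0.00299). IGF1, a growth factor, was at 14.7, 3.13, 13.9, 4.61 and 8.38 CPM in white matter and 30.2, 17.0, 29.3, 23.8 and 34.4 CPM in prefrontal cortex and fell by 1.75 ± 0.26 (adjusted p = 0.00208). LDHB, a lactate dehydrogenase subunit, fell by 0.90 ± 0.20 (adjusted p = 0.008) and was at 2.65, 19.0, 3.09, 27.0 and 34.5 CPM in white matter and 6.45, 33.0, 3.33, 71.0 and 59.7 CPM in prefrontal cortex. The regions overlapped, and animals 1 and 3 were low in both.

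Iron genes rose in 9 of 11 tested members and fell in 0, with a median of 1.15, and on 3 pairs 9 rose and 0 fell with a median of 1.32. TF encodes transferrin, which in the brain is made mainly by oligodendrocytes. It was at 2015, 4442, 2774, 3598 and 3694 CPM in white matter and 193, 303, 181, 95.3 and 72.4 CPM in prefrontal cortex, a fold change of 4.41 ± 0.41 (adjusted p = 0.000491). The ferritin subunits, which store iron, were higher in 5 of 5 animals: FTH1 was at 191, 414, 279, 347 and 256 CPM in white matter and 147, 85.7, 125, 109 and 100.1 CPM in prefrontal cortex (1.37 ± 0.27, adjusted p = 0.00523), and FTL rose by 1.31 ± 0.13 (adjusted p = 0.000562). TFRC, the transferrin receptor that imports iron, had a fold change of -0.08 ± 0.20 (adjusted p = 0.769). It was higher in white matter in animal 1 only, at 308, 154, 156, 154 and 154 CPM in white matter and 183, 181, 169, 243 and 167 CPM in prefrontal cortex.

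**Figure D2:**
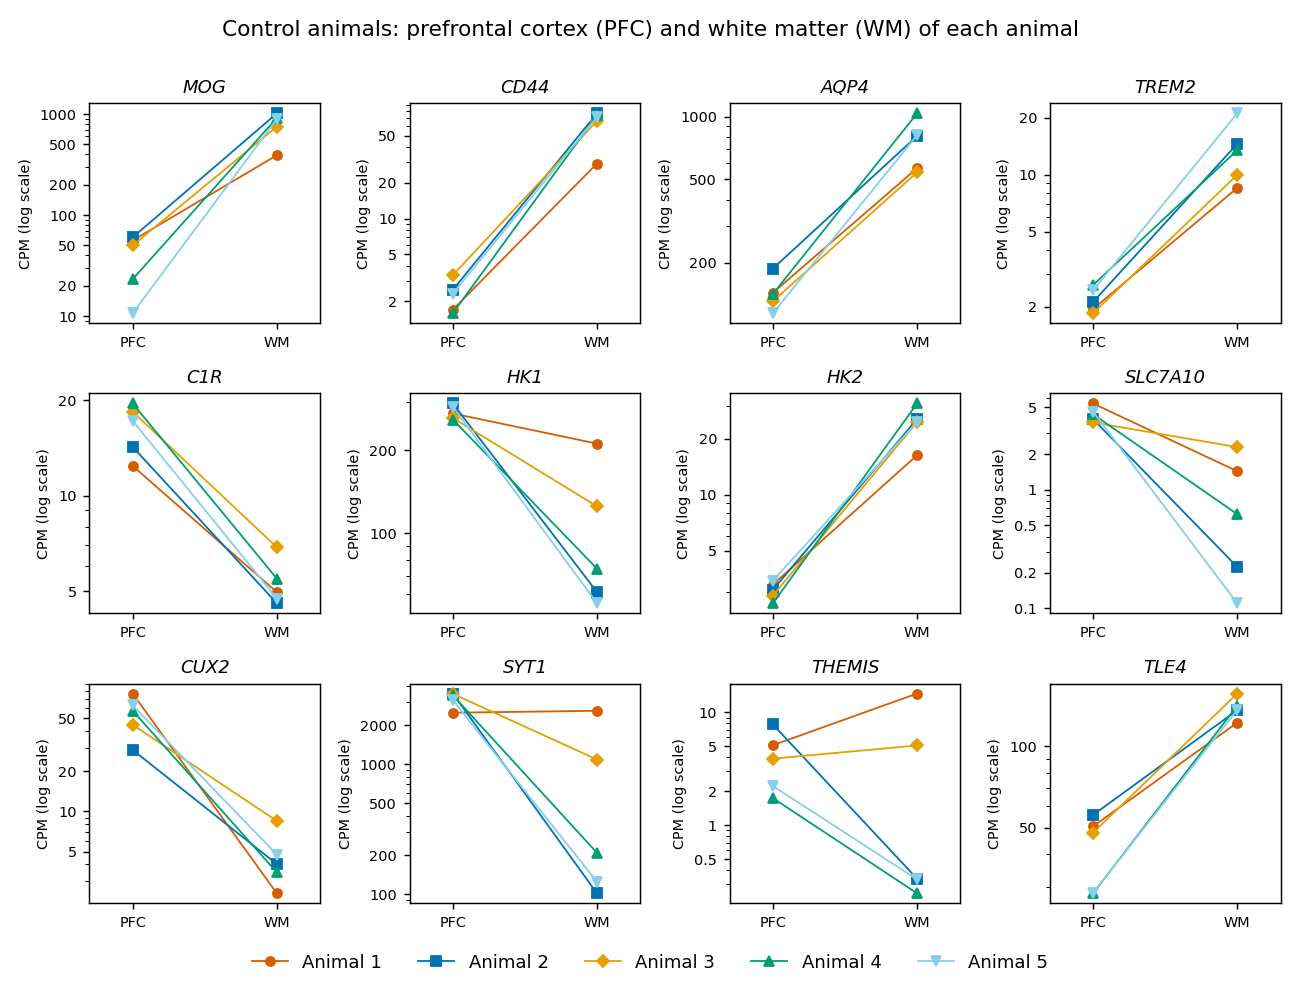
Levels of 12 genes in the prefrontal cortex (PFC) and white matter (WM) of each control animal, in CPM on a log axis, with a line joining the libraries of 1 animal. MOG, CD44, AQP4, TREM2, HK2 and TLE4 were higher in white matter in all 5 animals, C1R, HK1, SLC7A10 and CUX2 were lower in all 5, and the lines of animals 1 and 3 part from the others in SYT1 and THEMIS.

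Astrocyte genes were followed in 3 lists. Of 15 genes shared by astrocytes, 5 rose and 3 fell with a median of 0.14. Of 12 genes of protoplasmic astrocytes, 1 rose and 5 fell with a median of -0.41, and of 16 genes of fibrous or reactive astrocytes, 11 rose and 2 fell with a median of 1.86. On 3 pairs the medians were 0.08, -0.42 and 1.94, with 6 and 3, 1 and 6, and 11 and 4 members that rose and fell. The number of protoplasmic genes that fell was 3 without animal 3, 4 or 5, and 3 without the animal block. The difference between the astrocyte lists was not tested.

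ALDH1L1, a folate enzyme used as a general astrocyte marker, was at 35.3, 34.6, 28.3, 28.5 and 24.5 CPM in white matter and 36.8, 31.6, 30.4, 29.5 and 23.0 CPM in prefrontal cortex. The libraries overlapped, and its fold change was 0.00 ± 0.11 (adjusted p = 0.986). AQP4, the water channel of astrocyte endfeet, was at 566, 807, 541, 1035 and 815 CPM in white matter and 143, 187, 131, 142 and 114 CPM in prefrontal cortex and rose by 2.37 ± 0.20 (adjusted p = 0.000417). GJA1, the gap junction protein connexin 43, rose by 1.02 ± 0.15 (adjusted p = 0.00214). The glutamate transporters, which clear transmitter at synapses, were lower in white matter: SLC1A3 was at 468, 437, 468, 427 and 443 CPM in white matter and 785, 657, 751, 766 and 785 CPM in prefrontal cortex (-0.74 ± 0.13, adjusted p = 0.00359), with no overlap. SLC1A2 had a fold change of -0.47 ± 0.16 (adjusted p = 0.04) with overlapping libraries, and on 3 pairs of -0.42 ± 0.17 (adjusted p = 0.0569). FGFR3, a growth factor receptor of astrocytes, fell by 0.54 ± 0.11 (adjusted p = 0.00617).

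Of the protoplasmic genes, SLC7A10, an amino acid exchanger for serine and alanine, was at 1.44, 0.224, 2.29, 0.623 and 0.110 CPM in white matter and 5.36, 3.95, 3.70, 4.35 and 4.56 CPM in prefrontal cortex (-2.42 ± 0.57, adjusted p = 0.0104). Animals 2 and 5 had the lowest white matter levels and animals 1 and 3 the highest. SLC6A11, a GABA transporter, was at 13.2, 2.24, 12.8, 4.86 and 3.86 CPM in white matter and 33.9, 17.1, 20.4, 17.5 and 19.7 CPM in prefrontal cortex (-1.77 ± 0.32, adjusted p = 0.00415). GJB6, the gap junction protein connexin 30, did not pass, with -0.21 ± 0.15 (adjusted p = 0.267). GRM3, a metabotropic glutamate receptor of astrocytes, rose against the list, by 0.53 ± 0.13 (adjusted p = 0.0131).

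Of the fibrous genes, GFAP was at 1760.1, 2763, 2134, 2229 and 2914 CPM in white matter and 335, 377, 272, 294 and 215 CPM in prefrontal cortex, a fold change of 2.98 ± 0.23 (adjusted p = 0.000403). CD44, the hyaluronan receptor of long-process astrocytes, had one of the largest rises of all named genes, at 29.1, 77.1, 66.6, 74.4 and 71.8 CPM in white matter and 1.70, 2.51, 3.33, 1.59 and 2.34 CPM in prefrontal cortex (4.75 ± 0.23, adjusted p = 0.000334). Animal 1 had the lowest white matter level, and the regions were far apart in each. S100A6, a calcium-binding protein, rose by 1.76 ± 0.13 (adjusted p = 0.000403), and CHI3L2, a chitinase-like protein, by 5.67 ± 0.44 from 0 to 0.278 CPM in cortex to 1.66 to 8.78 CPM in white matter. VIM, vimentin, did not pass (-0.03 ± 0.14, adjusted p = 0.857). The members that fell were DPP10 and CPNE5, which neurons also express, with -2.35 ± 0.56 and -2.34 ± 0.36.

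Microglia genes were higher in white matter in every animal. All 10 tested members rose with no overlap between the regions, with a median fold change of 2.12 and 2.25 on 3 pairs. CSF1R, the receptor that microglia need to survive, was at 103, 190.2, 136, 150.2 and 155 CPM in white matter and 45.2, 36.3, 37.0, 34.0 and 35.5 CPM in prefrontal cortex (1.95 ± 0.19, adjusted p = 0.000538). GPR34, a lysophospholipid receptor, was at 44.6, 79.7, 46.8, 84.6 and 103 CPM in white matter and 17.3, 24.0, 20.8, 29.8 and 28.1 CPM in prefrontal cortex (1.53 ± 0.14, adjusted p = 0.000468). SELPLG, a ligand for selectins, rose by 2.09 ± 0.17 (adjusted p = 0.000415). TREM2, the lipid-sensing receptor of phagocytes, was chosen after its values were seen. It was at 8.50, 14.5, 9.98, 13.5 and 21.1 CPM in white matter and 1.95, 2.12, 1.85, 2.61 and 2.45 CPM in prefrontal cortex (2.57 ± 0.20, adjusted p = 0.000403), with animal 1 lowest and animal 5 highest in white matter.

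Genes of activated phagocytes rose in 8 and fell in 0 of 13 tested members, with a median of 1.37, and on 3 pairs 10 rose and 1 fell with a median of 1.42. SPP1, osteopontin, which oligodendrocytes and neurons can make as well, was at 725, 2189.5, 1540.4, 1623 and 2700.4 CPM in white matter and 109.6, 234, 192, 118 and 84.0 CPM in prefrontal cortex (3.53 ± 0.37, adjusted p = 0.000621). CD68, a lysosomal protein of macrophages, rose by 1.35 ± 0.26 (adjusted p = 0.00481) with overlapping libraries. GPNMB, a glycoprotein of lipid-laden phagocytes, was at 4.75, 24.9, 5.59, 12.3 and 19.4 CPM in white matter and 1.70, 30.5, 6.48, 9.99 and 11.8 CPM in prefrontal cortex. Here the animals differed more than the regions, and its fold change of 0.33 ± 0.26 did not pass (adjusted p = 0.316).

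Antigen presentation genes rose in 6 and fell in 1 of 8, with a median of 1.30, and on 3 pairs 7 rose and 0 fell with a median of 1.73. CD74, the invariant chain of MHC class II, was at 27.6, 70.7, 65.8, 52.8 and 45.8 CPM in white matter and 8.77, 6.07, 9.72, 10.7 and 5.45 CPM in prefrontal cortex (2.66 ± 0.28, adjusted p = 0.000629). MAMU-DRB1, a class II beta chain whose reads may be split among near-identical copies, rose by 1.94 ± 0.28 (adjusted p = 0.00186). CIITA, the regulator of class II genes, had 1.24 ± 0.45 (adjusted p = 0.052). TAPBP, a chaperone of class I loading, fell by 0.61 ± 0.22 (adjusted p = 0.0488).

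Complement genes moved in both directions: 7 of 12 rose and 2 fell, with a median of 0.74, and on 3 pairs 9 rose and 3 fell with a median of 0.92. C3, the central component, which is also in the microglia list, was at 176, 335, 289, 343 and 316 CPM in white matter and 43.2, 35.4, 42.8, 32.3 and 35.0 CPM in prefrontal cortex (2.92 ± 0.23, adjusted p = 0.000403). C1QC, a chain of the recognition molecule C1q made by microglia, rose by 0.55 ± 0.13 (adjusted p = 0.0119). The proteases that act with C1q were the 2 members that fell. C1R was at 4.97, 4.58, 6.88, 5.48 and 4.74 CPM in white matter and 12.4, 14.3, 18.4, 19.6 and 17.2 CPM in prefrontal cortex (-1.61 ± 0.15, adjusted p = 0.000495), lower in white matter in 5 of 5 animals with no overlap. C1S was at 12.4, 9.28, 16.9, 20.6 and 10.3 CPM in white matter and 17.9, 29.4, 21.4, 37.1 and 29.9 CPM in prefrontal cortex (-0.98 ± 0.23, adjusted p = 0.0103), also lower in 5 of 5 animals, with overlap. Animals 1 and 3 did not stand apart in C1R.

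Macrophages at vessels and in the meninges express MRC1, CD163, LYVE1 and F13A1, and this list had no common direction. Of 8 members 2 rose and 2 fell, with a median of -0.15, and on 3 pairs 2 rose and 2 fell with a median of -0.22. Without animal 2, 3, 4 or 5 only 1 gene rose. LYVE1, a hyaluronan receptor, was at 0.883, 1.79, 2.39, 1.37 and 3.09 CPM in white matter and 1.34, 4.24, 3.33, 7.10 and 8.23 CPM in prefrontal cortex (-1.24 ± 0.31, adjusted p = 0.0131). F13A1, a clotting factor subunit, fell by 1.80 ± 0.44 (adjusted p = 0.0126), except in animal 1. MRC1, the mannose receptor, rose by 0.59 ± 0.16 (adjusted p = 0.0183), and CD163, the haemoglobin scavenger receptor, had -0.25 ± 0.16 (adjusted p = 0.201).

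Of 4 tested genes of T and NK cells, 3 rose, and on 3 pairs all 4 did. PTPRC, the CD45 antigen of all leukocytes including microglia, rose by 1.82 ± 0.22 (adjusted p = 0.00106). CD8A, the co-receptor of cytotoxic T cells, was at 8.94, 10.3, 10.5, 10.7 and 1.76 CPM in white matter and 4.63, 3.18, 3.33, 6.23 and 1.78 CPM in prefrontal cortex (1.07 ± 0.27, adjusted p = 0.0137). CD4, which in primates is also found on macrophages, was at 2.21, 1.90, 52.0, 71.1 and 36.3 CPM in white matter and 3.17, 2.89, 11.7, 9.99 and 7.34 CPM in prefrontal cortex and did not pass (1.52 ± 0.57, adjusted p = 0.0575). White matter was below cortex in animals 1 and 2 and far above it in animals 3, 4 and 5. No gene of the CD3 complex was among the genes tested.

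Interferon-stimulated genes rose in 7 of 11 and fell in 0, with a median of 0.99, and on 3 pairs 6 rose and 0 fell with a median of 1.18. IFIT3 was at 38.6, 53.0, 42.5, 48.0 and 61.4 CPM in white matter and 15.6, 27.5, 22.0, 23.2 and 19.6 CPM in prefrontal cortex (1.18 ± 0.14, adjusted p = 0.00106), with no overlap. Its neighbour in the family, IFIT1, did not pass (-0.10 ± 0.24, adjusted p = 0.729). MX1, an antiviral GTPase, rose by 0.68 ± 0.22 (adjusted p = 0.0346) and on 3 pairs had 0.51 ± 0.26 (adjusted p = 0.115). OAS1, a sensor of double-stranded RNA, varied more between animals than between regions, at 1.10, 16.4, 3.19, 11.3 and 0.220 CPM in white matter and 1.22, 6.36, 4.54, 2.61 and 1.56 CPM in prefrontal cortex.

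Neuronal genes were lower in white matter, by amounts that differed between animals. All 13 pan-neuronal genes fell, with a median of -2.88 on 5 pairs and -4.26 on 3 pairs. SYT1, the calcium sensor of transmitter release, was at 2581, 102, 1089, 209 and 125 CPM in white matter and 2493, 3502, 3482, 3398 and 3114 CPM in prefrontal cortex. The white matter of animal 1 was above its own cortex and that of animal 3 was below it but well above those of animals 2, 4 and 5. The fold change was -3.22 ± 0.90 (adjusted p = 0.0199) on 5 pairs, and -4.62 ± 0.25 on the 3 pairs. RBFOX3, the nuclear antigen NeuN, was at 18.3, 0.559, 11.1, 2.12 and 1.87 CPM in white matter and 46.0, 23.5, 30.2, 27.4 and 32.4 CPM in prefrontal cortex (-2.88 ± 0.60, adjusted p = 0.00687). In animal 1 the white matter of 5 of the 13 pan-neuronal genes was above the own cortex, and in the other 4 animals 0 were. In each of these 5 genes the cortex of animal 1 was also the lowest cortex library, as in GAP43 at 171 against 299 to 412 CPM. Their level in the white matter of animal 1 was below the cortex of every other animal. The count of 13 depended on the animals: 7 genes passed without animal 2, 5 without animal 4, 5 without animal 5, and 7 without the animal block.

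The excitatory neuron list fell in 10 of 10 members with a median of -2.75, and of -3.62 on 3 pairs. SLC17A7, the vesicular glutamate transporter of cortical neurons, was at 216, 9.95, 118, 20.7 and 12.8 CPM in white matter and 530.3, 110.3, 363, 183 and 267 CPM in prefrontal cortex (-2.76 ± 0.49, adjusted p = 0.00391). Animal 1 had more in white matter than animals 2 and 4 had in cortex, although less than in its own cortex. NEUROD6, a transcription factor of excitatory neurons, was at 54.1, 2.01, 15.4, 3.49 and 1.32 CPM in white matter and 43.6, 146, 103, 109.6 and 95.0 CPM in prefrontal cortex (-3.96 ± 1.09, adjusted p = 0.0191).

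Genes of upper and deep cortical layers were set side by side in each animal. Of 8 upper-layer genes, 5 fell and 0 rose, with a median of -2.10, and on 3 pairs 1 rose and 5 fell with a median of -2.93. Of 12 deep-layer genes, 4 fell and 3 rose, with a median of -0.86, and on 3 pairs 9 fell and 2 rose with a median of -1.37. Without animal 1 alone 7 fell. In the white matter of animal 1, 9 of the 12 deep-layer genes were above the own cortex, and 0 of the 8 upper-layer genes were. In animal 3 these counts were 5 of 12 and 1 of 8, and in animals 2, 4 and 5 they were 3, 3 and 3 of 12 and 3, 2 and 1 of 8. TLE4, SEMA3E and NXPH4 were among the deep-layer genes counted in every animal. Over all genes tested, the median level in white matter was 101, 102, 100, 103 and 104% of the own cortex in animals 1 to 5. The difference between the layer lists was not tested.

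CUX2, a homeobox factor of upper-layer neurons, was at 2.43, 4.02, 8.48, 3.49 and 4.74 CPM in white matter and 76.6, 28.9, 44.6, 56.9 and 62.5 CPM in prefrontal cortex. It was low in the white matter of all 5 animals, and lowest in animal 1. Its fold change was -3.54 ± 0.38 (adjusted p = 0.000679), and -3.56 ± 0.23 on 3 pairs. RORB, a nuclear receptor marking layer IV, was at 27.3, 13.1, 51.6, 17.2 and 16.8 CPM in white matter and 109.8, 62.6, 90.3, 81.1 and 82.2 CPM in prefrontal cortex (-1.92 ± 0.25, adjusted p = 0.00121), with no overlap. CUX1, which glia also express, did not pass on 5 pairs (0.34 ± 0.31, adjusted p = 0.388).

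Among deep-layer genes, FEZF2, which specifies neurons projecting below the cortex, was at 26.2, 8.94, 13.8, 11.7 and 8.93 CPM in white matter and 13.3, 24.6, 19.8, 14.8 and 13.8 CPM in prefrontal cortex. White matter was above cortex in animal 1 only (-0.40 ± 0.32, adjusted p = 0.331). FOXP2, a factor of layer VI neurons, was at 21.6, 4.58, 14.5, 7.47 and 3.09 CPM in white matter and 17.4, 18.5, 18.3, 15.9 and 16.9 CPM in prefrontal cortex (-1.06 ± 0.41, adjusted p = 0.0641), and its fold change was -1.85 ± 0.26 on the 3 pairs, which neuronal genes had chosen. THEMIS, best known in T cells and found in a class of deep-layer neurons, moved most of all deep-layer genes. It was at 14.7, 0.335, 5.09, 0.249 and 0.331 CPM in white matter and 5.11, 7.81, 3.89, 1.74 and 2.22 CPM in prefrontal cortex, so white matter was above cortex in animals 1 and 3 and at most 0.335 CPM in the others. Its fold change was -0.93 ± 0.89 (adjusted p = 0.402) on 5 pairs, and -3.57 ± 0.48 on the 3 pairs, given without a test for the same reason.

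The deep-layer genes that rose were TLE4, SEMA3E and NXPH4. TLE4, a transcriptional co-repressor, was at 122, 136, 157, 142 and 137 CPM in white matter and 50.5, 55.7, 47.9, 28.5 and 28.7 CPM in prefrontal cortex (1.76 ± 0.20, adjusted p = 0.000809), and SEMA3E, a secreted guidance cue, was at 97.7, 118, 116, 159 and 153 CPM in white matter and 18.4, 53.6, 33.7, 12.5 and 9.01 CPM in prefrontal cortex (2.59 ± 0.46, adjusted p = 0.00395). Both were higher in 5 of 5 animals with no overlap, and animals 1 and 3 did not stand apart. NXPH4, a secreted partner of neurexins, was at 5.08, 1.23, 4.59, 2.37 and 1.76 CPM in white matter and 2.80, 1.16, 3.05, 0.869 and 0.890 CPM in prefrontal cortex (0.76 ± 0.25, adjusted p = 0.0361). On 3 pairs its fold change was 0.78 ± 0.41, given without a test as for THEMIS.

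**Figure D3:**
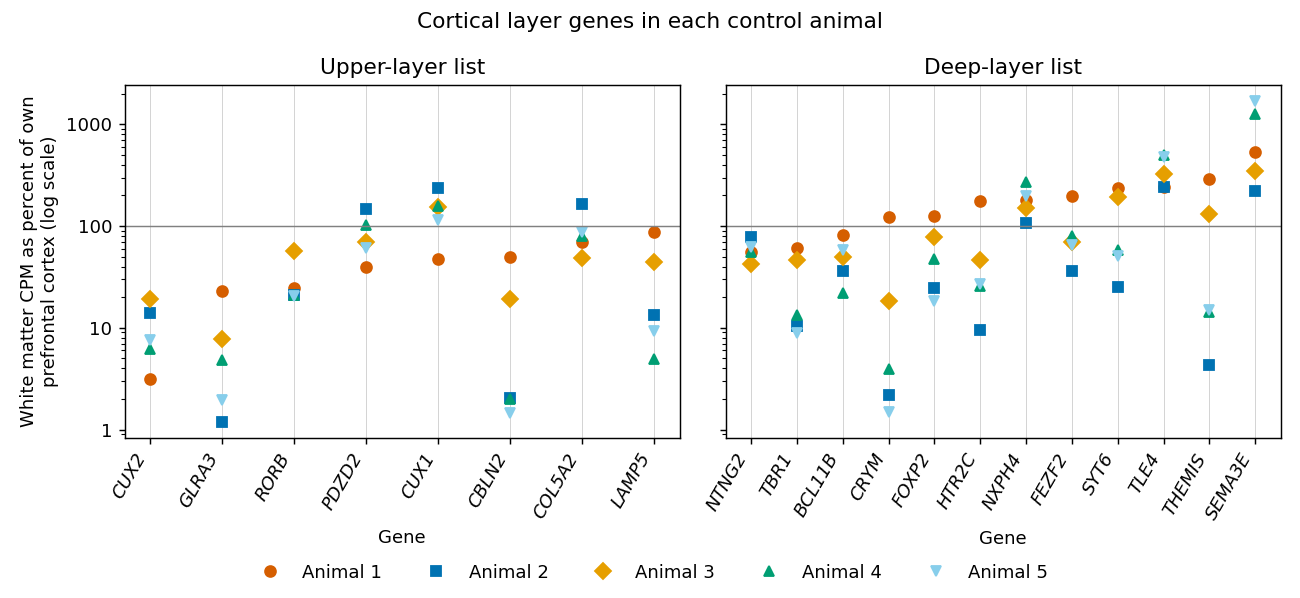
White matter as a percent of the own prefrontal cortex for each upper-layer and deep-layer gene, on a log axis, with 1 symbol per animal. In animal 1 the white matter of 9 of 12 deep-layer genes lay above 100% and that of 0 of 8 upper-layer genes did. TLE4, SEMA3E and NXPH4 lay above 100% in every animal.

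The genes lost from the white matter of animals 2, 4 and 5 were followed in animals 1 and 3. A set of 657 genes was at least 8-fold lower on the 3 pairs and had at least 5 CPM in the cortex of animals 1 and 3. Animals 2, 4 and 5 chose the set, so only animals 1 and 3 are described. The white matter of animal 1 held a median of 53.4% of its own cortex (quartiles 37.5 and 72.9%), and that of animal 3 held 31.1% (25.9 and 37.5%). In animal 1, 28 of the 657 genes were below 20% and 54 were above 100%, and in animal 3 these were 82 and 0.

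The extremes were picked by these values among the 518 genes with a symbol. The lowest in animal 1 were FREM3, a matrix protein, at 1.55% of the own cortex, then CUX2 at 3.17%, DNAH2, a dynein heavy chain, at 5.82%, and NEK2, a cell cycle kinase, at 6.18%. The highest were KRT16, a keratin, at 350.0%, PWWP3B at 246%, RXFP1, a relaxin receptor, at 176%, and CNTN6, a cell adhesion molecule of axons, at 172%. GAP43, a protein of growing axon terminals, was at 153%. In KRT16, CNTN6 and GAP43, but not in PWWP3B and RXFP1, the cortex of animal 1 was also the lowest cortex library. For KRT16 it was at 18.4 CPM, against 23.5 to 62.1 CPM in the others. Of the 518 genes, 10 were below 20% in both animals.

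Interneuron genes fell in 14 and rose in 0 of 17 tested members, with a median of -2.28, and on 3 pairs 0 rose and 14 fell with a median of -3.11. GAD1, an enzyme that makes the transmitter GABA, was at 167, 16.1, 111, 21.7 and 16.6 CPM in white matter and 301, 358, 343, 411 and 425 CPM in prefrontal cortex (-3.22 ± 0.71, adjusted p = 0.00859). PVALB, the calcium buffer of fast-spiking interneurons, was at 11.3, 3.46, 13.1, 4.48 and 4.74 CPM in white matter and 17.4, 17.5, 20.5, 30.0 and 18.1 CPM in prefrontal cortex (-1.61 ± 0.36, adjusted p = 0.00881). VIP, a neuropeptide, was at 7.95, 0.224, 4.29, 1.12 and 0.992 CPM in white matter and 22.6, 26.1, 32.3, 57.6 and 45.3 CPM in prefrontal cortex. Its fold change moved from -4.01 ± 0.74 (adjusted p = 0.00449) to -5.82 ± 0.25 without animals 1 and 3, and that of CCK, another neuropeptide, from -3.98 ± 1.05 to -6.01 ± 0.21.

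The 3 interneuron genes that did not pass, NPY, NOS1 and TACR1, are named because they are the only exceptions in the list. NPY, a peptide of sparse interneurons, was at 42.2, 11.4, 31.0, 22.0 and 31.0 CPM in white matter and 6.45, 18.4, 19.4, 12.2 and 13.3 CPM in prefrontal cortex (0.94 ± 0.43, adjusted p = 0.104), higher in white matter in 4 of 5 animals. NOS1, the neuronal nitric oxide synthase that often goes with NPY, was at 17.1, 7.38, 19.3, 10.5 and 9.15 CPM in white matter and 27.4, 8.67, 17.8, 10.6 and 16.7 CPM in prefrontal cortex (-0.34 ± 0.19, adjusted p = 0.162). TACR1, the substance P receptor, had -0.58 ± 0.41 (adjusted p = 0.271).

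White matter holds scattered interstitial neurons, for which 9 genes could be tested: 4 rose, 2 fell, and the median was 0.76, and on 3 pairs 3 rose and 3 fell with a median of 0.44. The largest rises were those of ST18, a transcription factor, with 4.16 ± 0.45, and LPAR1, a receptor for lysophosphatidic acid, with 3.56 ± 0.35. Both genes are strongly expressed in oligodendrocytes as well, and ST18 was named after its values were seen. NR4A2, an orphan nuclear receptor of subplate neurons, was at 37.1, 4.36, 19.9, 6.60 and 4.85 CPM in white matter and 25.7, 11.7, 24.9, 9.70 and 9.34 CPM in prefrontal cortex. White matter was above cortex in animal 1 only, and the fold change was -0.50 ± 0.28 (adjusted p = 0.161) on 5 pairs and -1.01 ± 0.23 on 3. CALB2, calretinin, was at 1.32, 2.01, 1.20, 1.62 and 0.992 CPM in white matter and 5.11, 6.07, 7.13, 7.97 and 10.2 CPM in prefrontal cortex (-2.33 ± 0.28, adjusted p = 0.00106). SST, somatostatin, was at 17.7, 5.36, 17.0, 9.84 and 12.8 CPM in white matter and 23.9, 53.8, 46.2, 61.3 and 77.3 CPM in prefrontal cortex (-2.08 ± 0.42, adjusted p = 0.00597). CALB2 and SST fell in 5 of 5 animals with no overlap.

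Synaptic genes fell almost without exception. Of 22 genes of vesicles and fusion 21 fell, with a median of -2.68, of 30 genes of glutamate receptors and their scaffolds 27 fell and 1 rose, with a median of -2.02, and of 17 genes of GABA and glycine receptors 16 fell, with a median of -2.18. On 3 pairs the medians were -3.66, -2.45 and -3.06. Without animal 5, 10 of the 17 GABA and glycine receptor genes fell. STX1A, a syntaxin of the fusion machinery, was at 105, 5.81, 42.3, 8.10 and 5.29 CPM in white matter and 143, 167, 193, 187 and 216 CPM in prefrontal cortex (-3.52 ± 0.83, adjusted p = 0.0105). RAB3A, a vesicle GTPase and the vesicle gene that did not pass, was at 18.3, 22.9, 20.6, 21.7 and 17.1 CPM in white matter and 20.9, 17.0, 19.0, 18.7 and 15.1 CPM in prefrontal cortex (0.15 ± 0.13, adjusted p = 0.364).

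GRIN1, the obligatory NMDA receptor subunit, was at 124, 8.05, 91.5, 17.8 and 12.0 CPM in white matter and 491, 124, 234, 180.3 and 235 CPM in prefrontal cortex (-2.97 ± 0.48, adjusted p = 0.00284). In animal 1 white matter was level with the cortex of animal 2, the lowest cortex library, and well below its own cortex. GRIN2A, a subunit of mature synapses, had -3.51 ± 0.73 (adjusted p = 0.0066), and GRIN2B, the more juvenile subunit, had -2.37 ± 0.37 (adjusted p = 0.00233). GRM3, already described as an astrocyte gene, was the one that rose. The GABA receptor alpha subunits GABRA2, GABRA3 and GABRA4 fell, with -1.86 ± 0.18, -1.93 ± 0.48 and -2.42 ± 0.44. GABRG1, a gamma subunit also found in glia, was the member that did not pass (-0.22 ± 0.19, adjusted p = 0.353).

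Receptors for monoamines and acetylcholine fell in 13 and rose in 1 of 17, with a median of -1.93, and on 3 pairs 1 rose and 14 fell with a median of -2.57. DRD1, the main dopamine receptor of cortical neurons, was at 15.7, 2.01, 7.98, 3.61 and 1.65 CPM in white matter and 21.8, 29.6, 21.4, 26.9 and 21.6 CPM in prefrontal cortex (-2.36 ± 0.54, adjusted p = 0.00965), whereas DRD2 did not pass, with 0.60 ± 0.49 (adjusted p = 0.327). HTR1A, a serotonin receptor, was at 6.62, 0.447, 2.49, 0.374 and 0.551 CPM in white matter and 8.16, 10.4, 6.85, 10.7 and 8.90 CPM in prefrontal cortex (-2.58 ± 0.70, adjusted p = 0.0183), and fell by 4.43 ± 0.32 on 3 pairs.

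Channel genes fell as well: 17 of 20 potassium channel genes, and all 22 sodium and calcium channel genes, with medians of -2.65 and -2.29, and of -3.52 and -3.0 on 3 pairs. In none of the 5 animals was any of the 22 above the own cortex, including animal 1. SCN1A, the sodium channel of interneurons, was at 378, 33.2, 300.0, 53.7 and 36.8 CPM in white matter and 588, 495, 549, 576 and 468 CPM in prefrontal cortex (-2.54 ± 0.63, adjusted p = 0.0127). SCN8A, the sodium channel concentrated at nodes and axon initial segments, was at 340.4, 18.6, 209, 37.5 and 23.7 CPM in white matter and 581, 321, 502, 342 and 414 CPM in prefrontal cortex (-2.71 ± 0.62, adjusted p = 0.00936). KCNC2, a potassium channel subunit of fast-spiking neurons, fell by 3.23 ± 0.79 (adjusted p = 0.0126). Of 7 immediate-early genes, which neurons switch on with activity, 6 fell, on 3 pairs as well. ARC was at 19.5, 5.36, 25.0, 5.98 and 3.20 CPM in white matter and 76.5, 23.6, 87.2, 55.6 and 70.3 CPM in prefrontal cortex (-2.64 ± 0.40, adjusted p = 0.00223), and JUNB, which is induced in many cell types, did not pass (-0.26 ± 0.18, adjusted p = 0.265).

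Genes of the node and paranode, where axon and myelin meet, moved in both directions: 7 of 19 rose and 7 fell, with a median of 0.16, and on 3 pairs 9 rose and 7 fell with a median of 0.31. CNTN2, an adhesion molecule found on both oligodendrocytes and axons, was at 478, 1324, 849, 1148 and 899 CPM in white matter and 177, 73.1, 95.4, 61.1 and 55.6 CPM in prefrontal cortex (3.45 ± 0.47, adjusted p = 0.00152). CNTNAP1 and CNTNAP2, the axonal partners at paranode and juxtaparanode, had -2.27 ± 0.43 and -2.74 ± 0.50 (adjusted p = 0.00472 and 0.00408). CNTN1, an axonal and glial adhesion molecule, had 0.16 ± 0.18 (adjusted p = 0.46).

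Genes of the axonal cytoskeleton and of transport fell in 13 and rose in 1 of 20, with a median of -1.67, and on 3 pairs 1 rose and 13 fell with a median of -2.38. The number that fell was 6 without animal 4, 8 without animal 5 and 8 without the animal block. NEFL, the light neurofilament chain, was at 892, 25.0, 453, 45.8 and 34.3 CPM in white matter and 879, 1250.5, 1176, 1154 and 1131 CPM in prefrontal cortex, so that the white matter of animal 1 was at the level of its cortex while animals 2, 4 and 5 were at 45.8 CPM or less. Its fold change was -3.51 ± 1.06 (adjusted p = 0.027), and -5.14 ± 0.23 on 3 pairs. NEFM, the medium chain, fell by 1.68 ± 0.36 (adjusted p = 0.00733). Another 6 members did not pass. One of them, named after its values were seen, was MAPT, the microtubule protein tau, at 53.1, 63.0, 63.5, 58.0 and 49.7 CPM in white matter and 107, 52.6, 68.0, 58.8 and 68.4 CPM in prefrontal cortex (-0.27 ± 0.19, adjusted p = 0.278), and without animals 1 and 3 its fold change was -0.10 ± 0.16. DPYSL2, a tubulin-binding protein also present in oligodendrocytes, rose by 0.97 ± 0.21 (adjusted p = 0.00743).

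**Figure D4:**
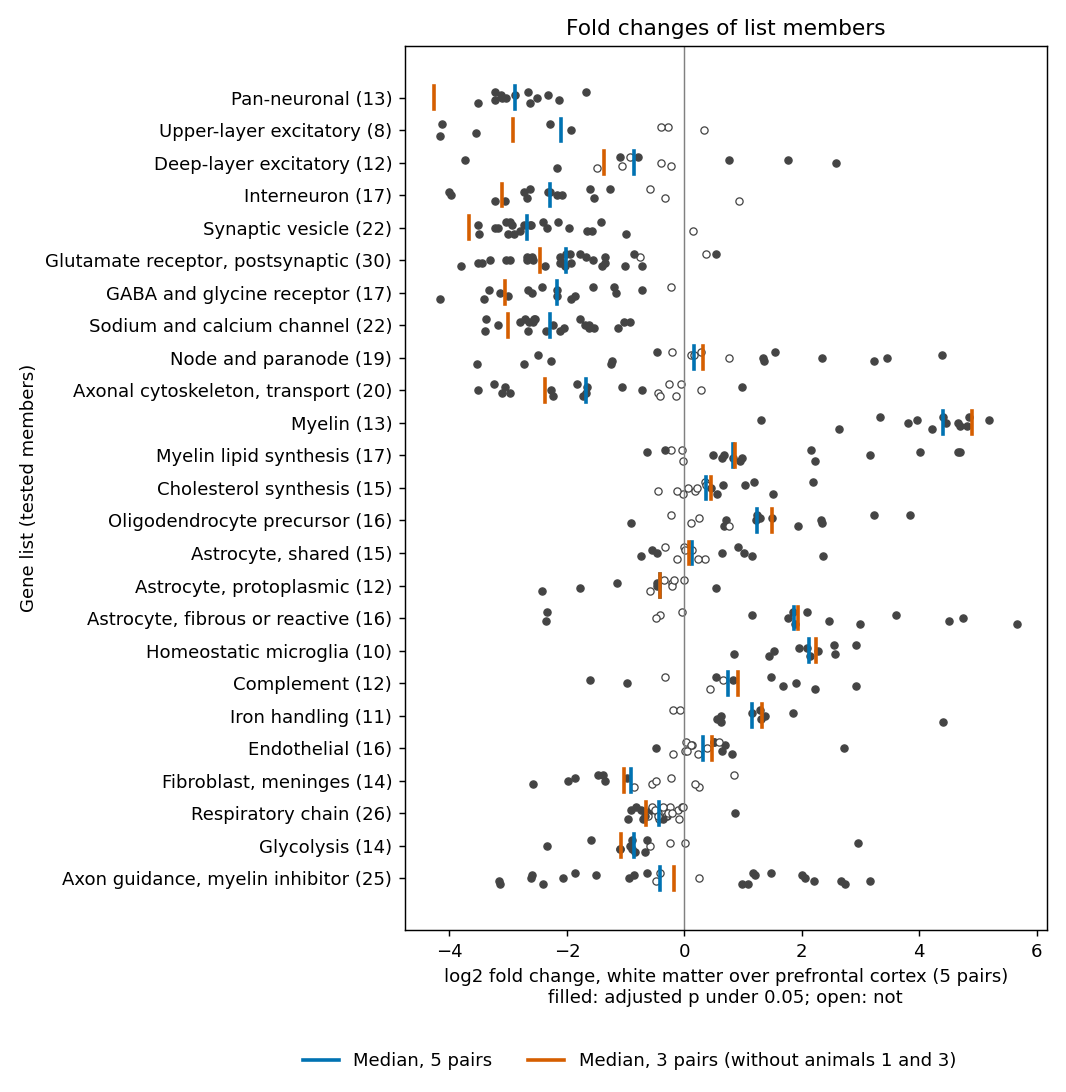
Log2 fold change of white matter against prefrontal cortex for every tested member of the gene lists shown, 1 row per list, with filled symbols for an adjusted p under 0.05 and bars for the list median on 5 pairs (blue) and on 3 pairs (orange). Members of the neuronal and synaptic lists lie almost all to the left of 0 and those of the myelin and microglia lists to the right, while the astrocyte, complement, node and axon guidance lists extend to both sides.

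Most glycolysis genes were lower in white matter, with an exception at the first step. Of 14 genes 10 fell and 1 rose, with a median of -0.86, and on 3 pairs 1 rose and 11 fell with a median of -1.07. HK1, the hexokinase of neurons, was at 212, 61.0, 125, 74.2 and 55.6 CPM in white matter and 272, 296, 262, 259 and 288 CPM in prefrontal cortex (-1.58 ± 0.32, adjusted p = 0.0061). HK2, the inducible hexokinase, was at 16.3, 25.6, 24.6, 31.0 and 24.7 CPM in white matter and 3.29, 3.08, 2.87, 2.61 and 3.45 CPM in prefrontal cortex (2.97 ± 0.20, adjusted p = 0.000403). HK1 was lower and HK2 higher in 5 of 5 animals, neither with overlap. Animal 1 had the smallest fall of HK1 and the smallest rise of HK2. GPI, the next enzyme, had -0.83 ± 0.17 (adjusted p = 0.00603), and PFKM, the muscle-type phosphofructokinase, had -0.63 ± 0.20 (adjusted p = 0.0295).

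Nuclear genes of the respiratory chain fell in 9 and rose in 1 of 26, with a median of -0.44, and in 20 and 1 of 26 on 3 pairs with a median of -0.66. The count rested on which animals were included: 20 fell without animal 1, and 0, 1, 0 and 0 passed as lower without animal 2, 3, 4 or 5. White matter was above the own cortex for 23 of the 26 genes in animal 1, and for 1, 1, 2 and 7 in animals 2 to 5. Both libraries of animal 1 were apart here. The mean log2 CPM of the list was 6.37 in its cortex, against 6.91 to 7.16 in the other cortex libraries. In its white matter the mean was 6.80, against 6.19 to 6.59 in the others. Over all genes tested, the median level in the white matter of animal 1 was 101% of its cortex. NDUFA9, a subunit of complex I, was at 99.5, 53.1, 67.9, 59.7 and 60.2 CPM in white matter and 83.3, 118, 117, 120.4 and 114 CPM in prefrontal cortex (-0.73 ± 0.22, adjusted p = 0.0248). SDHD, a membrane anchor of complex II, was the gene that rose, at 14.4, 8.72, 7.58, 25.4 and 19.8 CPM in white matter and 7.06, 5.78, 4.26, 15.5 and 8.79 CPM in prefrontal cortex (0.87 ± 0.15, adjusted p = 0.00328).

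Heat shock genes fell in 4 and rose in 5 of 17, and on 3 pairs 5 rose and 8 fell with a median of -0.26. CRYAB, the small heat shock protein of oligodendrocytes and astrocytes, was at 316, 723, 575, 611 and 779.9 CPM in white matter and 38.6, 79.2, 52.4, 41.3 and 35.3 CPM in prefrontal cortex (3.60 ± 0.25, adjusted p = 0.000403). HSPB8, which works with the co-chaperone BAG3, rose by 1.67 ± 0.15, and BAG3 itself by 2.60 ± 0.41.

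Endothelial and pericyte genes moved in both directions. Of 16 endothelial genes 6 rose and 1 fell with a median of 0.31, and of 9 genes of pericytes and smooth muscle 4 rose and 1 fell with a median of 0.58. On 3 pairs 6 endothelial genes rose and 1 fell, 5 pericyte genes rose and 1 fell, and the medians were 0.48 and 0.82. The number of endothelial genes that rose was 3 without animal 3 or 4, and that of pericyte genes was 2 without animal 2 or 3 and 1 without animal 4 or 5. PECAM1, an adhesion molecule of all endothelium, was at 23.1, 28.5, 24.6, 20.8 and 17.6 CPM in white matter and 27.2, 13.8, 19.2, 17.4 and 20.6 CPM in prefrontal cortex (0.24 ± 0.21, adjusted p = 0.356). KDR, the main VEGF receptor, fell by 0.49 ± 0.17 (adjusted p = 0.0464). SLCO1A2, an organic anion transporter also known from oligodendrocytes, had the largest rise of the endothelial list with 2.72 ± 0.26 and was named after its values were seen. ACTA2, smooth muscle actin, was at 9.05, 10.6, 12.7, 8.10 and 13.7 CPM in white matter and 21.4, 21.0, 19.8, 26.9 and 32.8 CPM in prefrontal cortex (-1.17 ± 0.18, adjusted p = 0.00213).

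Genes of fibroblasts and meninges fell in 7 and rose in 0 of 14, with a median of -0.91, and on 3 pairs 11 fell and 2 rose with a median of -1.02. COL1A1, a fibrillar collagen chain, was at 2.32, 1.12, 1.90, 3.11 and 3.42 CPM in white matter and 4.26, 6.65, 6.30, 3.91 and 8.67 CPM in prefrontal cortex (-1.35 ± 0.32, adjusted p = 0.0115). SLC47A1, a cation exporter, was at 7.84, 0.224, 3.99, 1.37 and 0.441 CPM in white matter and 9.86, 16.1, 9.26, 12.7 and 12.0 CPM in prefrontal cortex (-2.58 ± 0.78, adjusted p = 0.0263), and fell by 4.39 ± 0.42 on 3 pairs. In SLC47A1 the white matter of animals 1 and 3 was again the highest.

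Markers of neighbouring structures were examined too. For the choroid plexus and ependyma 5 genes were tested, of which 2 rose and 2 fell, on 3 pairs as well. FOXJ1, the master regulator of motile cilia, was at 1.88, 2.01, 1.60, 1.62 and 3.20 CPM in white matter and 0.487, 0.385, 0.370, 0.579 and 0.667 CPM in prefrontal cortex (2.03 ± 0.28, adjusted p = 0.00154). DNAH11, a ciliary dynein, rose by 2.38 ± 0.26 and SPAG6, a ciliary apparatus protein, fell by 2.28 ± 0.52. Of 6 striatal genes 1 rose and 3 fell, with PENK, proenkephalin, at 4.42, 0.782, 3.49, 0.498 and 5.40 CPM in white matter and 12.2, 18.3, 16.2, 33.6 and 27.6 CPM in prefrontal cortex (-2.97 ± 0.61, adjusted p = 0.00625). Of 9 hippocampal genes 2 rose and 6 fell, with PROX1, a homeobox factor, at 2.08 ± 0.36 and CALB1, calbindin, at -3.10 ± 0.31. No erythroid gene was tested, and the highest raw count of any of them in the 10 libraries was 3.

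Growth factor genes and their receptors fell in 9 and rose in 5 of 20, and on 3 pairs 7 rose and 10 fell with a median of -0.23. FGFR2, a receptor of oligodendrocytes, was at 192, 344, 296, 378 and 388 CPM in white matter and 81.7, 65.1, 68.7, 58.5 and 58.6 CPM in prefrontal cortex (2.24 ± 0.24, adjusted p = 0.000712), while FGFR3 fell. FGF9, a ligand made by neurons, was at 3.20, 0.671, 1.70, 0.249 and 0.110 CPM in white matter and 7.67, 4.24, 3.15, 4.06 and 4.34 CPM in prefrontal cortex (-2.23 ± 0.55, adjusted p = 0.0125). FGF2, a ligand made by astrocytes, had 0.28 ± 0.12 (adjusted p = 0.0935), although its white matter was above its cortex in 5 of 5 animals with no overlap. The ligand PDGFA rose by 1.62 ± 0.17 and its relative PDGFB fell by 1.15 ± 0.17. ERBB3, a receptor for neuregulins, rose by 4.00 ± 0.41, and the neuregulin NRG1 fell by 1.45 ± 0.35. PDGFB and NRG1 were named after their values were seen.

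Axon guidance genes and myelin inhibitors fell in 11 and rose in 11 of 25, on 3 pairs as well. RTN4, Nogo, an inhibitor of axon growth made by oligodendrocytes and neurons, was at 1953, 2085, 1993, 2225 and 1953 CPM in white matter and 1251, 1737, 1832, 2002 and 1808 CPM in prefrontal cortex (0.26 ± 0.16, adjusted p = 0.205). Its neuronal receptor RTN4R was at 21.3, 2.12, 11.5, 3.24 and 2.65 CPM in white matter and 55.4, 41.3, 47.5, 62.9 and 53.7 CPM in prefrontal cortex (-3.15 ± 0.54, adjusted p = 0.00332). OMG, another myelin ligand of this receptor, was at 308, 401, 371, 419 and 475 CPM in white matter and 111, 238, 176, 209 and 140.4 CPM in prefrontal cortex (1.21 ± 0.18, adjusted p = 0.00196). The related receptor RTN4RL2 fell by 3.13 ± 0.44 (adjusted p = 0.00173). PLXNB3 and UNC5B, receptors for semaphorin and netrin cues, were among the 5 members that moved up most without animals 1 and 3. PLXNB3 was at 85.4, 261, 165, 149 and 140.3 CPM in white matter and 64.7, 22.4, 32.3, 12.3 and 12.1 CPM in prefrontal cortex, and its fold change was 2.73 ± 0.52 on 5 pairs and 3.52 ± 0.14 on 3. For UNC5B these were 3.15 ± 0.51 and 3.98 ± 0.16.

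Outside the lists, the largest rises and falls included genes at low levels. ADGRD2, an adhesion receptor, was at 2.21, 8.83, 5.09, 10.6 and 7.94 CPM in white matter and 0, 0.0964, 0, 0 and 0 CPM in prefrontal cortex. The cortex held 1 count in all 5 libraries and white matter 307, a ratio of 308 with a 95% exact interval from 54.9 to 12207, which covers counting error only. TBXT, the transcription factor brachyury, was at 2.21, 5.48, 2.79, 13.2 and 12.8 CPM in white matter and 0, 0, 0.278, 0 and 0.111 CPM in prefrontal cortex (6.01 ± 0.67, adjusted p = 0.00076), with the white matter of animals 4 and 5 highest. COL2A1, a collagen best known from cartilage, was at 6.29, 40.5, 7.68, 37.2 and 21.3 CPM in white matter and 0.609, 0.771, 0.648, 1.01 and 0.667 CPM in prefrontal cortex (4.68 ± 0.37, adjusted p = 0.00041), lowest in the white matter of animals 1 and 3.

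ANLN, an actin-binding protein of myelin, was at 839, 1816, 1429, 2009.9 and 2369 CPM in white matter and 45.5, 99.9, 81.3, 32.9 and 23.7 CPM in prefrontal cortex (4.99 ± 0.50, adjusted p = 0.000564), and TMEM144, a membrane protein, was at 673, 1591, 788, 821 and 1119.8 CPM in white matter and 38.7, 76.4, 40.9, 28.7 and 14.6 CPM in prefrontal cortex (4.75 ± 0.37, adjusted p = 0.000403). In both genes each of the 5 white matter libraries was well above all cortex libraries.

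Of the largest falls, FFAR4, a receptor for long-chain fatty acids, had 0 counts in all 5 white matter libraries and 13 to 43 counts in each cortex library. It was at least 41.2-fold lower, taking 3 counts over the group as the limit that a count of 0 allows. RHAG, a blood group antigen and ammonium channel, had 1 count in white matter and 125 in cortex, a ratio of 125 with a 95% exact interval from 22.0 to 4959. CHRNA6, a nicotinic receptor subunit, was at 0, 0.112, 0.200, 0 and 0.110 CPM in white matter and 3.04, 4.53, 2.78, 4.06 and 4.12 CPM in prefrontal cortex (-5.18 ± 0.51, adjusted p = 0.000543). In these 3 genes animals 1 and 3 did not stand apart from the others.

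MEPE, a matrix phosphoglycoprotein known from bone, was at 10.5, 0.447, 2.99, 0.498 and 0.441 CPM in white matter and 32.4, 52.4, 81.7, 70.0 and 62.5 CPM in prefrontal cortex (-5.03 ± 0.87, adjusted p = 0.00346). LAD1, an anchoring protein known from skin, was at 24.7, 0.559, 13.4, 3.61 and 0.882 CPM in white matter and 41.3, 112, 60.6, 149 and 108 CPM in prefrontal cortex (-4.24 ± 1.13, adjusted p = 0.0172). In MEPE and LAD1 the white matter of animal 1 was the highest and that of animal 3 the next. NEUROD1, a neuronal transcription factor, was at 3.86, 0.224, 0.599, 0.249 and 0.110 CPM in white matter and 8.04, 12.0, 16.2, 15.2 and 20.2 CPM in prefrontal cortex (-4.26 ± 0.82, adjusted p = 0.00514). DNAH2 was at 1.88, 0.447, 1.10, 0.623 and 0.992 CPM in white matter and 32.3, 15.0, 19.0, 17.8 and 18.4 CPM in prefrontal cortex (-4.37 ± 0.21, adjusted p = 0.000334), and NEK2 at 0.331, 0.112, 0.599, 0.125 and 0.882 CPM in white matter and 5.36, 6.84, 11.5, 22.3 and 17.2 CPM in prefrontal cortex (-4.84 ± 0.42, adjusted p = 0.000437), both low in the white matter of all 5 animals.

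The same contrast was fitted in the TBI animals, and its difference from the controls was tested on all 20 libraries. Both came from 1 fit on these 20 libraries, whereas the control calls came from the fit on the 10 control libraries. Spread was thus estimated from more libraries for the TBI contrast, and numbers of calls are not comparable between the groups. Levels and percents of TBI animals were scaled on these 20 libraries and those of controls on the 10 control libraries alone. Levels are therefore not strictly comparable between the groups. Of 15761 genes, 10853 (68.9%) passed within the TBI animals, with 5666 higher (35.9%) and 5187 lower (32.9%) in white matter. Of the 8259 genes called in controls, 7939 were called in the same direction in TBI animals. Another 319 were not called or not tested, and 1 was called in the opposite direction. By edgeR's quasi-likelihood test of the difference between the contrasts, 1178 of 15761 genes had an unadjusted p under 0.05, where chance gives about 788. The difference passed for 0 of 15761 genes (0%), and the smallest adjusted p was 0.431. No difference between control and TBI animals below is therefore past the threshold, which does not show that the contrasts were alike.

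The white matter of all 5 TBI animals was low in neuronal genes. The median of the 13 pan-neuronal genes was 4.43, 7.64, 4.36, 5.17 and 9.37% of the own cortex in TBI Animals 1 to 5, so no TBI animal had a value as high as control animals 1 and 3. The median fold change of this list was -4.10 in TBI animals, against -2.88 in controls and -4.26 on the 3 control pairs. The myelin list had 4.88 in TBI animals, against 4.41 in controls and 4.90 on the 3 control pairs.

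Microglia genes had a median of 2.77 in TBI animals, against 2.12 in controls and 2.25 on the 3 control pairs, and the TBI value was larger than that of the 5 controls in 10 of 10 genes. The same held for 13 of 13 myelin genes, 13 of 13 genes of activated phagocytes and 8 of 8 antigen presentation genes, and for 70.4% of the 4182 genes that rose in controls and 50.2% of all genes tested there. The median level of the microglia genes in white matter was 256, 509.7, 363, 479 and 540.4% of the own cortex in the controls and 780.4, 653, 781, 791 and 524% in the TBI animals. GPR34 had 2.48 ± 0.14 in TBI animals and 1.53 ± 0.14 in controls, and TREML1, a receptor related to the TREM family, had 2.72 ± 0.15 and 1.61 ± 0.18. Perivascular macrophage genes rose in 6 and fell in 2 of 8 in TBI animals, against 2 and 2 in controls. These counts come from the unlike fits, in which 35.9% and 27.8% of all genes tested were higher. How far the fits account for the counts was not tested. C1R had -0.37 ± 0.22 in TBI animals against -1.61 ± 0.15 in controls (adjusted p of the difference = 0.48), and C1S had 0.02 ± 0.23 against -0.98 ± 0.23 (adjusted p = 0.564). C1R and C1S were taken up here after their values were seen.

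The gene called in opposite directions was ADAMTSL2, a matrix protein, with -0.66 ± 0.20 (adjusted p = 0.0243) in controls and 1.02 ± 0.21 (adjusted p = 0.000938) in TBI animals. It was at 11.3, 10.3, 6.38, 6.35 and 6.06 CPM in white matter and 13.9, 12.6, 12.5, 8.98 and 14.7 CPM in prefrontal cortex in controls and at 8.86, 24.5, 19.1, 28.6 and 16.0 CPM in white matter and 8.14, 8.88, 10.5, 9.78 and 7.70 CPM in prefrontal cortex in TBI animals. The other differences with the smallest p toward higher values in TBI animals were those of GPX1, a glutathione peroxidase, with 0.71 ± 0.14 against -0.33 ± 0.15, and NAIP, an inflammasome receptor, with 0.91 ± 0.16 against -0.22 ± 0.19. Toward lower values, PCDH8, a protocadherin of synapses, had -3.66 ± 0.20 against -2.31 ± 0.23, PPARGC1A, a regulator of mitochondrial genes, had -1.46 ± 0.12 against -0.61 ± 0.11, and SLC39A12, a zinc transporter, had -1.81 ± 0.17 against -0.58 ± 0.17. The adjusted p of each of these differences was 0.431.

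**Figure D5:**
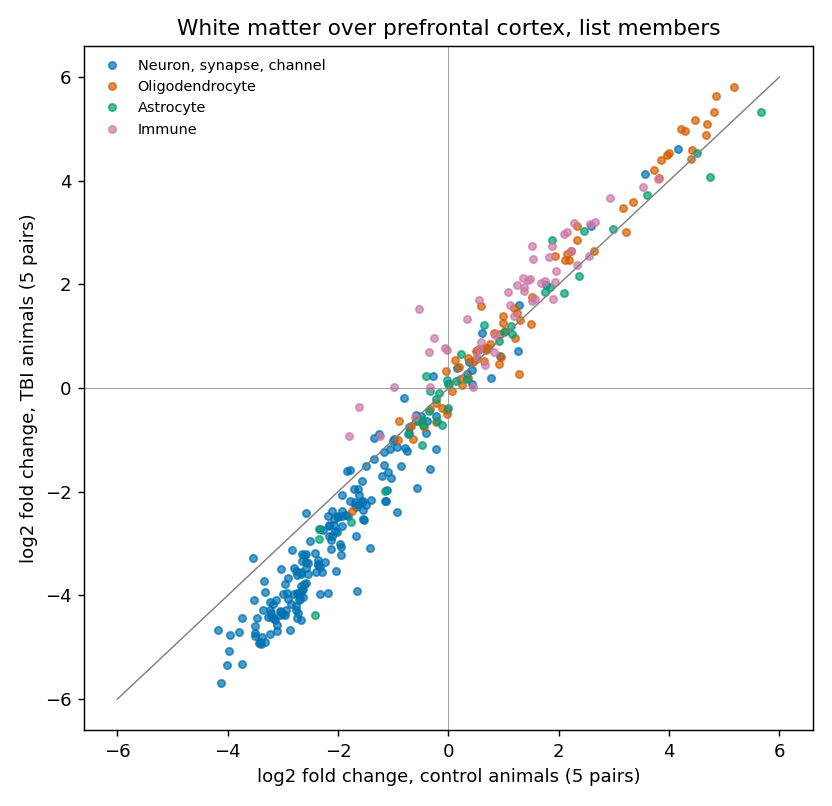
Log2 fold change of white matter against prefrontal cortex in control animals (x axis) and in TBI animals (y axis) for tested members of the neuronal, oligodendrocyte, astrocyte and immune lists, 1 point per gene, with a grey line of equal values. All 10 microglia genes lie above the line, and 0 of 15761 genes passed the test of the difference.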

How the data were processed

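The authors deposited raw read counts per gene (Ensembl gene IDs) for 45 ribosome-depleted total RNA libraries. Per the submitters' processing notes, the tools were FastQC, STAR and DESeq2 besides featureCounts. Tool versions, strand setting, build and annotation release were not given in the sources used here, so overlapping and antisense genes cannot be told apart with certainty and no coordinates are given. Gene symbols came from a table of gene IDs; of the 15033 genes tested, 11234 had one. Of 760 list symbols 592 had an ID and 555 were tested.

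The white matter and prefrontal cortex libraries of the 5 control animals were compared with edgeR 4.0.16 (R 4.3.3): TMM scaling, its default expression filter, a quasi-likelihood test with the animal as block, and Benjamini-Hochberg adjustment over all genes tested with a threshold of 0.05. Pairing comes from the labels, which give both regions of an animal the same number. The correlations of the deviations of an animal's libraries from their region means were 0.04, 0.12, 0.31, 0.20 and 0.20. Between libraries of different animals they ranged from -0.30 to 0.21, so these values do not settle the pairing. The difference from the TBI animals was an interaction term in 20 libraries, and the contrast within the TBI animals came from the same fit. Within each region, all pairs of control libraries differed by more than sampling noise. A script was tested on simulated data with 200 changed genes. In each library 16.6 to 21.0% of counts fell on genes without a symbol.

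Named genes were the 12 largest rises and falls at a mean of at least 1 CPM with the same sign in all 5 animals, the first 4 tested members of each list, up to 4 members called against their list's median, the members that moved most without animals 1 and 3, and the 5 smallest interaction p-values in each direction; other names are marked as chosen after their values were seen. Some of these genes are not reported here. The members and lists were chosen with earlier results of these data known. The alternatives were no block, all 15 control libraries, other size factors, DESeq2 1.42.0, limma-voom (limma 3.58.1), other filters, a fold minimum and leaving out animals. The hippocampus and the animals given fractionated whole-brain irradiation were not analysed here, apart from the control hippocampus in the fit on all 15 control libraries.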

Additional observations from a re-analysis of the deposited data

Results flagged for a closer look

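In 35 of 448 groups of 5 libraries, 1 library lay apart from the others by more than Dixon's critical value. Each group was a named gene or the mean of a gene list in 1 region. Chance gives this in about 1 in 20 groups. Each value is set against the range of the other 4 libraries, and no explanation was tested.

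The prefrontal cortex of animal 1 was apart in several measures. It was low in COX6C (41.8 against 112 to 131 CPM), NDUFA9 (83.3 against 114 to 120.4 CPM), DPP10 (197 against 299 to 324 CPM) and CD163 (7.55 against 12.1 to 12.9 CPM). It was high in MAPT (107 against 52.6 to 68.4 CPM), DNAH2 (32.3 against 15.0 to 19.0 CPM), FGF9 (7.67 against 3.15 to 4.34 CPM), SLC6A11 (33.9 against 17.1 to 20.4 CPM) and CSF1R (45.2 against 34.0 to 37.0 CPM). The mean log2 CPM of the shared astrocyte genes was 8.38 against 8.06 to 8.15 there.

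So was its white matter. It was high in the neuronal genes GAP43 (261 against 34.5 to 76.9 CPM), NEUROD6 (54.1 against 1.32 to 15.4 CPM), NEUROD1 (3.86 against 0.110 to 0.599 CPM), FEZF2 (26.2 against 8.93 to 13.8 CPM) and in MEPE (10.5 against 0.441 to 2.99 CPM). It was also high in TFRC (308 against 154 to 156 CPM), GPI (325 against 174 to 214 CPM) and FGFR3 (73.2 against 64.9 to 66.3 CPM), and the mean log2 CPM of glycolysis genes was 7.30 against 6.67 to 6.80. It was low in CD44 (29.1 against 66.6 to 77.1 CPM) and MRC1 (14.7 against 36.0 to 38.4 CPM), and the mean log2 CPM of precursor genes was 5.73 against 6.18 to 6.37.

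Other libraries were apart in few measures. In animal 5, white matter was low in CD8A (1.76 against 8.94 to 10.7 CPM) and high in FOXJ1 (3.20 against 1.60 to 2.01 CPM) and FGF2 (21.7 against 18.6 to 19.0 CPM), and the mean log2 CPM of perivascular macrophage genes was 3.74 against 2.88 to 2.94. In animal 2, cortex was high in MX1 (48.2 against 19.4 to 27.0 CPM) and low in SLC1A3 (657 against 751 to 785 CPM), and the mean log2 CPM of upper-layer genes was 5.58 against 6.09 to 6.23. In animal 4, cortex was high in PVALB (30.0 against 17.4 to 20.5 CPM) and TFRC (243 against 167 to 183 CPM), white matter was high in PCDH8 (30.0 against 15.9 to 19.9 CPM), and the mean log2 CPM of hippocampal genes in white matter was 4.51 against 4.24 to 4.30. The single counts of ADGRD2 in cortex (0.0964 against 0 CPM) and of RHAG in white matter (0.112 against 0 CPM), both in animal 2, were apart from 4 libraries with 0.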

How the results depend on the processing

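Without the replicate block, that is without pairing the libraries of an animal, 4298 genes were higher and 4089 lower in white matter, and 7796 of the 8259 calls kept their direction. Leaving out each animal in turn gave 5887 to 9703 calls. Among the settings tried, the total moved by more than 1.5 times only where the change had to exceed 1 on the log2 scale, a stricter question, with 1183 higher and 973 lower genes, 2156 in all. In 0 genes did any setting call the opposite direction. Scaling by total counts shifted the median of all genes from 0.03 to -0.07 and gave 3671 higher and 4621 lower genes, so 44.3% in place of 50.6% of calls were higher. DESeq2 gave 4005 and 4340, and limma-voom 5192 and 4976. The difference between TBI and control animals became 1 call without the replicate block. It stayed at 0 with 1 animal left out, without control animals 1 and 3, with relative log expression size factors, with limma-voom and without a filter, and was not computed under the other settings.

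Of the 181 genes named from the tables of all tested genes and lists, 165 kept their direction and their side of the threshold without animals 1 and 3. Leaving out 1 animal, which also leaves fewer libraries, kept 154 to 169. Of 146 named genes that passed, 27 lost the call in at least 1 of these 5 fits, with adjusted p between 0.0501 and 0.151. Without animal 1 these were KDR, MX1, NXPH4 and TAPBP. Leaving out animal 2, 3, 4 or 5 lost 15, 11, 21 and 24 calls. The genes were ACSBG1, ADAMTSL2, CCK, CD8A, CSPG4, GABRA3, GAP43, GRM3, HTR1A, KDR, LAD1, LPIN1, LYVE1, MRC1, MVD, MX1, NDUFA9, NEFL, NEUROD6, NXPH4, PFKM, SCN1A, SLC1A2, SLC39A12, SLC47A1, SYT1 and TAPBP. Sign changes were seen only in genes that did not pass. ALDH1L1 ranged from -0.0276 to 0.0177 with 1 animal left out and was -5.511e-05 without the replicate block, -0.0281 with all 15 control libraries, -0.0364 with relative log expression size factors and with DESeq2, -0.0987 with total counts and -0.00140 with limma-voom. FASN was 0.25 without animals 1 and 3, 0.15 with limma-voom and -0.26 to 0.18 with 1 animal left out. HMGCS1 was 0.0217 without the replicate block and -0.17 to 0.0812 with 1 animal left out. With 1 animal left out, IFIT1 ranged from -0.32 to 0.0731, OAS1 from -0.10 to 0.81, TFRC from -0.28 to 0.0721 and VIM from -0.14 to 0.0913. The cause of these changes was not tested. On simulated data for 14878 genes and 5 pairs, with 200 genes changed, 39% of 2-fold and 91% of 4-fold changes were recovered. On 3 simulated pairs these were 67 and 97%. Unchanged genes gave 7 false calls on 5 pairs and 16 on 3 pairs. Each simulation took its spread from its own real pairs, so the rates on 5 and 3 pairs rest on unlike spreads. The simulation held no animal differences and changed a far smaller share of genes than the 54.9% called in the real data. The rates therefore need not hold here, and a gene that did not pass may still have changed by 2-fold.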
